A study of Mus musculus with 4 samples.

Results

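Collagen chain genes, the genes that encode the alpha chains of the collagens, were followed in RNA-seq libraries of Mitf-inducible mouse embryonic fibroblasts (MEFs). The list holds 41 collagen chain genes of the mouse, given by name, and was drawn up with earlier results of these data known. Of these, 40 had exons among the 22835 genes of the deposited table. Col13a1, which encodes a transmembrane collagen, was the exception and was not analysed here. The library labelled MEF was taken as that of the wild-type MEFs at passage 3 from its name alone. Values given under this name elsewhere in the study differ, so that its identity is not certain and comparisons with it describe the library so labelled. The libraries Dox (-) and Dox (+) came from Mitf knock-in MEFs at passage 5, without doxycycline (Dox) and after 6 days of Dox. Both knock-in libraries carried ROSA26-M2rtTA, the Dox-dependent activator expressed from a ubiquitous locus, and a Dox-responsive M-Mitf transgene placed downstream of the Col1a1 gene in embryonic stem cells, from which chimera embryos were made with 1 targeted clone. All MEFs grew in DMEM with serum. There was 1 library per condition, no wild-type culture treated with Dox was among the libraries used here, and the effects of Dox itself and of Mitf therefore cannot be told apart. Dox (-) and MEF differed at least in genotype and in passage. The study also describes an mCherry transgene in the knock-in cells, chimeras made with BDF2 host blastocysts, and isolation of knock-in cells through mCherry and puromycin resistance. The effects of these differences cannot be told apart either. The library of primary mouse melanocytes (PMel) was not analysed here.

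The value of a gene was the RPKM (reads divided by exon length and by library depth) of its highest exon, as in the methods of the study, so levels of different genes are per length. Whole reads could be recovered from the RPKM values with depths of 45000000 reads for MEF, 45000000 for Dox (-) and 44000000 for Dox (+). A gene was compared between 2 libraries when it exceeded 10 RPKM in at least 1 of them, and it was called higher or lower when the ratio of its levels exceeded 4-fold. Log2 differences were computed after adding 1 RPKM, which understates differences of genes with low levels. Intervals in brackets are exact 95% intervals for the ratio of the reads of the 2 libraries on 1 exon, the highest exon of the gene over the 3 libraries. They cover counting error only, and with 1 library per condition no difference below has a replicate check.

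Mitf, the induced gene, had 1.52 RPKM in MEF, 30.8 RPKM in Dox (-) and 1544 RPKM in Dox (+). The fibroblast markers that were read summed to 25577 RPKM in MEF, 15717 RPKM in Dox (-) and 28964 in Dox (+), with Vim and Thy1 the highest, and 1 of the 9, Tcf21, stayed at or under 1 RPKM throughout. Vim made up most of that sum, and most other members ran against it. In Dox (-) against MEF the median log2 difference of the list was 1.47 and Pdgfra, Dpt, Prrx1 and Fap were called higher by the rule above, and in Dox (+) against Dox (-) the median was -0.75. Dpt had 20.4, 123 and 4.15 RPKM in MEF, Dox (-) and Dox (+) and was called lower in Dox (+), and Fap had 1.5, 296 and 110 RPKM. Between the knock-in libraries, Thy1 rose with Dox from 2014 to 3608 RPKM, Prrx1 from 336 to 474 and Twist1 from 79.7 to 89.9. Vim rose as well, whereas Pdgfra, Pdgfrb, Dpt, Tcf21 and Fap fell. Of 8 macrophage markers, 8 were over 10 RPKM in Dox (-), 2 in MEF and 4 in Dox (+), none of them was at 0 in any library, and their summed level was 54.4 RPKM, 12946 RPKM and 473 RPKM in MEF, Dox (-) and Dox (+). Lyz2 alone had 27.8 RPKM in MEF, 10820 RPKM in Dox (-) and 379 RPKM in Dox (+), and Laptm5 had 1.35, 694 and 22.0 RPKM. The sum of 5 smooth muscle markers, led by Acta2 and Tagln, was 19954, 21780 and 50218 RPKM in the same order. Melanocyte markers summed to 5.95, 45.6 and 1809 RPKM, led by Mitf in both knock-in libraries and by Pmel, at 3.70 RPKM, in MEF. Mitf, the induced gene itself, made up most of that sum in Dox (-) and in Dox (+). Of the other members, Mlana had 0.58, 0.39 and 133 RPKM and Tyrp1 0, 0.52 and 110 RPKM. Sox10 had 0.051, 6.69 and 1.66 RPKM, and Dct, Slc45a2 and Oca2 stayed at or under 1 RPKM throughout. Sums of chondrocyte, keratinocyte and endothelial markers stayed at or below 73.6 RPKM in each of the 3 libraries. The macrophage markers and several fibroblast markers, but not Vim, Thy1, Prrx1 and Twist1, thus moved in the same directions as most collagen genes described below. The part of these markers in those differences was not tested. In bulk RNA, fewer cells of a type and less RNA per cell cannot be told apart.

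Collagens are trimers of alpha chains wound into a triple helix. The helix is built on the triplet Gly-X-Y repeated along the chain, because only glycine is small enough to sit at its centre. Fibrillar collagens, such as types I, III and V, build the banded fibrils of skin, tendon and bone and are the main product of fibroblasts. Type IV collagen forms the sheet of basement membranes, type VI forms beaded filaments around cells, and the FACIT collagens (fibril-associated collagens with interrupted triple helices) decorate the surface of fibrils. Chains are hydroxylated and folded in the endoplasmic reticulum, trimmed of their propeptides outside the cell and cross-linked by lysyl oxidases.

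The repeat can be read in the exons that set the levels used here. The exons of collagen genes are short: of 1854 exon positions of the 40 genes, 448 (24.2%) were exactly 54 bp long, against 0.331% of the exon positions of all other genes, and 58.9% had a length that is a multiple of 9 bp, against 12.6%. The highest exon was wholly coding in 37 of the 40 genes and at most 54 bp long in 32. In 21 genes a glycine codon opened each triplet of codons in it. The sequences below show this for 5 genes on which the results turn, 3 fibrillar chains and both main chains of type IV, and for Col14a1, a FACIT collagen whose highest exon lies outside the glycine repeat. They are read from the mm10 genome 5′ to 3′ on the strand of the gene, and capitals mark the glycine codons (GGN) in frame.
Col1a1, chr11:94945368-94945412, plus strand: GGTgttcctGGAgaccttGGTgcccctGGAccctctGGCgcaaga
Col3a1, chr1:45335135-45335188, plus strand: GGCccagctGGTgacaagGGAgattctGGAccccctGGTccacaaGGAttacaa
Col5a2, chr1:45396450-45396494, minus strand: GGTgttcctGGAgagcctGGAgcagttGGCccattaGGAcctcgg
Col4a1, chr8:11240041-11240067, minus strand: GGTcagaaaGGTgaacctGGAtttccg
Col4a2, chr8:11408882-11408917, plus strand: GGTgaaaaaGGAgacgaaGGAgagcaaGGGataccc
Col14a1, chr15:55448198-55448236, plus strand: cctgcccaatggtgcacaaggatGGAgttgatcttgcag

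By the highest exon, collagen messages were among the most abundant of these cultures. Over the 40 genes the levels summed to 30935 RPKM in MEF, 70968 RPKM in Dox (-) and 19320 RPKM in Dox (+). In Dox (-) the summed level was thus 2.29-fold that of MEF, and in Dox (+) it was 3.67-fold below Dox (-). The fibrillar chains made up 79.6% of the sum in MEF, 72.5% in Dox (-) and 50.5% in Dox (+), while the type IV chains made up 4.34%, 12.4% and 26.6%. Type VI chains accounted for 10.8%, 8.0% and 15.4%. These shares add the highest exon of each gene and were not recomputed with other exons. In absolute terms the fibrillar sum was 5.28-fold lower in Dox (+) than in Dox (-) (9747 against 51470 RPKM) and the type IV sum 1.71-fold lower (5130 against 8778 RPKM), so the larger share of type IV in Dox (+) went with a lower level.

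**Figure D1:**
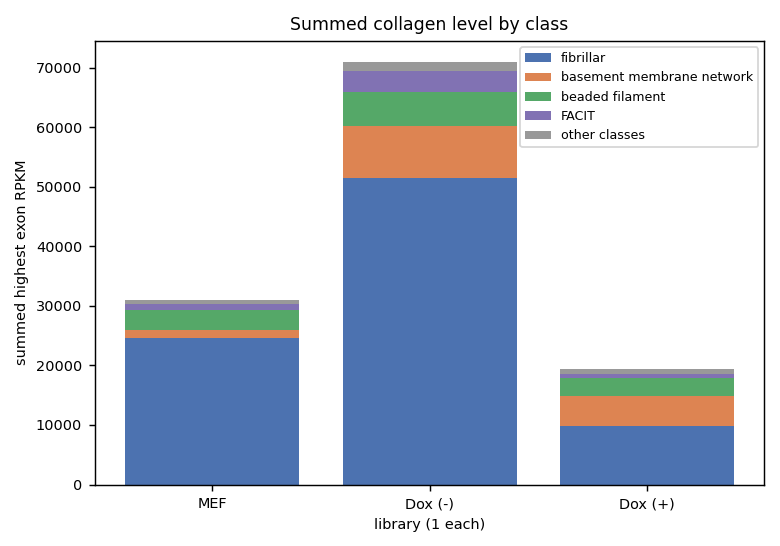
Summed level of the collagen chain genes (sum of the highest exon RPKM of each gene, vertical axis) in the libraries MEF, Dox (-) and Dox (+), stacked by class. The bar of Dox (-) reaches 70968 RPKM against 30935 RPKM in MEF and 19320 RPKM in Dox (+), and the fibrillar segment is the largest in each bar.

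The first comparison asked which collagen genes differed between knock-in MEFs with and without induction. Of 30 collagen genes compared, 11 (36.7%) were called lower in Dox (+) than in Dox (-) and 0 higher. Over all 13307 genes compared, 5.41% were called lower and 1.64% higher. The 11 genes were Col1a1, Col1a2, Col2a1, Col3a1, Col5a2, Col11a1, Col24a1 and Col27a1 of the fibrillar class, Col12a1 and Col14a1 of the FACIT class, and Col25a1, a transmembrane collagen. Across all 40 genes the median log2 difference was -1.21, with 38 genes below 0 and 2 above, beside a median of 0.0083 over all 22835 genes. Scaling the libraries to a common median of expressed genes moved the log2 differences of well expressed genes in Dox (+) against Dox (-) down by about 0.30 and left 38 genes below 0. In the 11 genes called lower, 528 of 528 exons with at least 20 reads were lower in Dox (+), and 481 of them by over 4-fold, but the direction in these genes was set by the call itself. In the 19 genes compared and not called, 751 of 836 such exons were lower.

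**Figure D2:**
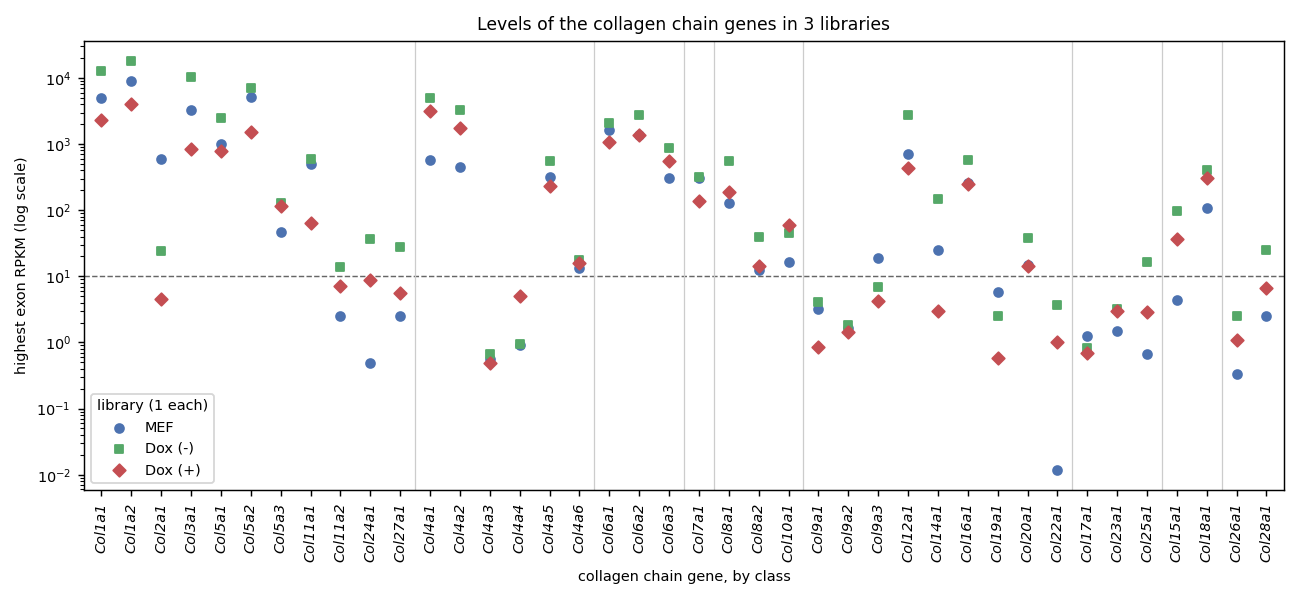
Level of each of the 40 collagen chain genes (highest exon RPKM, log scale) in MEF (circles), Dox (-) (squares) and Dox (+) (diamonds), 1 library each, with genes grouped by class and the dashed line at 10 RPKM. For most fibrillar genes the square of Dox (-) is the highest point and the diamond of Dox (+) the lowest, whereas for Col4a1 and Col4a2 the circle of MEF is the lowest.

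Type I collagen, the main collagen of bone, tendon and skin, is made of the chains encoded by Col1a1 and Col1a2. Col1a1, at chr11:94936224-94953042 on the plus strand, had 4958 RPKM in MEF, 12562 RPKM in Dox (-) and 2301 RPKM in Dox (+). Dox (-) was therefore the highest and Dox (+) the lowest, 5.46-fold below Dox (-) [5.29 to 5.64]. Col1a2 showed the same order at 9087, 17942 and 4089 RPKM and was 4.39-fold lower in Dox (+) than in Dox (-) [4.26 to 4.52]. By its highest exon, of 28 bp, Col1a2 ranked 35th of all genes in MEF, 13th in Dox (-) and 127th in Dox (+). The median exon of Col1a2 had 3312, 6440 and 1567 RPKM in the same order. Short exons tended to read above the median of their gene, as given below, so such ranks can be raised for collagen genes. In the protein α1 chains outnumber α2 chains, and the Col1a1 level stayed below that of Col1a2, with ratios of 0.546 in MEF, 0.700 in Dox (-) and 0.563 in Dox (+), all from the highest exon of each gene.

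Col3a1, whose product forms fibrils with type I collagen in skin and vessels, stood further apart. It had 3320 RPKM in MEF, 10487 RPKM in Dox (-) and 847 in Dox (+), and the last was 12.4-fold below Dox (-). Its highest exon, printed above, held 7735, 25483 and 2009 reads, and the ratio on that exon was 12.4 [11.9 to 13.0]. All 51 exons of Col3a1 were over 4-fold lower in Dox (+), with a median exon log2 ratio of -3.55 and 80% of exons between -3.69 and -3.27. By rank of the highest exon, Col3a1 moved from place 27 among all genes in Dox (-) to place 994 in Dox (+). The gene (chr1:45311538-45349706, plus strand) lies near Col5a2 (chr1:45374321-45503282, minus strand), which was also called lower.

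The chains of type V collagen, which nucleates fibrils and limits their width, did not all differ alike. Col5a2 had 5080 RPKM in MEF, 7137 RPKM in Dox (-) and 1523 RPKM in Dox (+), 4.69-fold lower in Dox (+) than in Dox (-) [4.51 to 4.88]. Col5a1, its partner chain, had 1020, 2519 and 783 RPKM and was 3.22-fold lower, below the threshold for a call. The level ratio of Col5a1 to Col5a2 was thus 0.201 in MEF, 0.353 in Dox (-) and 0.514 in Dox (+). From exons of at least 150 bp this ratio was 0.575 in Dox (-) and 0.956 in Dox (+). Col5a3, the third chain of the type, had 47.0, 128 and 115 RPKM. Its highest exon gave a ratio of 0.88 in Dox (+) relative to Dox (-) [0.75 to 1.04], but 46 of its 67 exons were higher in Dox (+) and 21 lower, so no direction can be given for this gene.

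Type XI collagen, the relative of type V in cartilage, was represented mainly by Col11a1. Col11a1 had 507 RPKM in MEF, 592 RPKM in Dox (-) and 64.0 RPKM in Dox (+), 9.26-fold lower in Dox (+) than in Dox (-). All 69 of its exons were over 4-fold lower. Col11a2, the other genuine chain of the type, stayed at 2.47, 13.8 and 7.07 RPKM. Col2a1, the main collagen of cartilage, followed another course than the rest of the class, with 599 RPKM in MEF, 24.5 RPKM in Dox (-) and 4.47 RPKM in Dox (+), and it was the 1 fibrillar gene for which MEF was far above both knock-in libraries. The 7 cartilage markers did not move as one. Matn3 had 3.53, 2.47 and 0.36 RPKM and Hapln1 2.05, 0.59 and 0.52 RPKM, in the order of Col2a1, whereas Sox9 had 23.2, 10.3 and 25.0 RPKM. Comp had 13.8, 23.9 and 38.2 RPKM and Acan 4.28, 8.30 and 9.58 RPKM, both lowest in MEF. Matn1 stayed at or below 1.37 RPKM and Snorc was at 0 throughout. Col24a1 and Col27a1, fibrillar genes of low level, had 37.0 and 27.6 RPKM in Dox (-) and 8.84 and 5.58 RPKM in Dox (+), and were called lower by 4.19-fold and 4.95-fold.

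**Figure D3:**
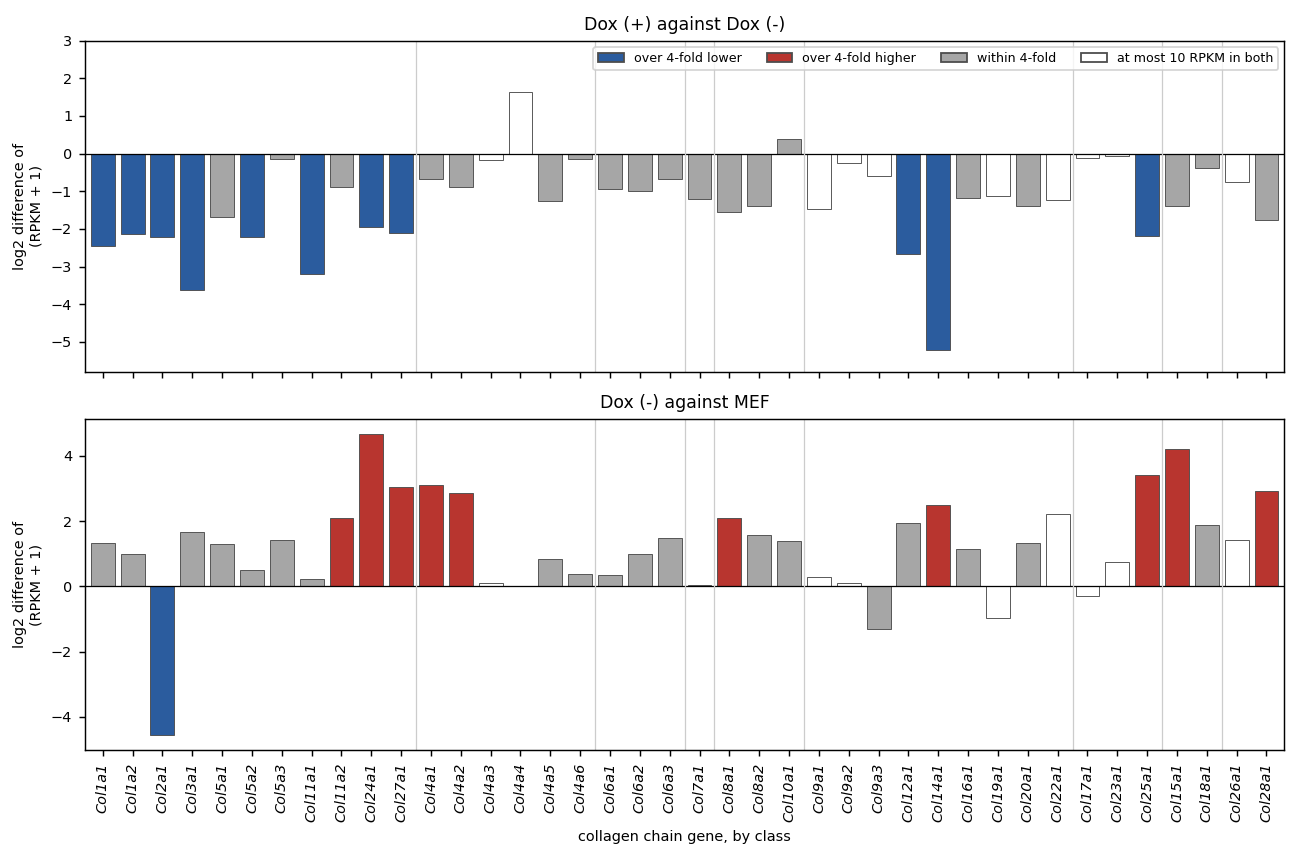
Difference of each collagen chain gene on the log2(RPKM + 1) scale in Dox (+) against Dox (-) (upper panel) and in Dox (-) against MEF (lower panel), both of which use the Dox (-) library. In the upper panel 11 bars are blue (over 4-fold lower) and none red, and in the lower panel 10 bars are red (over 4-fold higher) and 1, Col2a1, is blue; grey bars are within 4-fold and white bars mark genes at or below 10 RPKM in both libraries.

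Among the FACIT collagens, Col12a1 and Col14a1 differed most between the knock-in libraries. Col14a1 had 25.2 RPKM in MEF, 146 RPKM in Dox (-) and 2.95 in Dox (+), a 49.7-fold difference of levels between Dox (-) and Dox (+), the largest of any collagen gene compared. On its highest exon, the one printed above, 257 reads in Dox (-) stood against 3 in Dox (+), a ratio of 83.8 with a wide counting interval [28.3 to 409]. All 55 exons of the gene were over 4-fold lower. Col12a1, which associates with type I fibrils, had 720, 2772 and 433 RPKM and was 6.41-fold lower in Dox (+) than in Dox (-) [5.84 to 7.04], in 70 of 72 exons by over 4-fold. Col16a1 had 261, 573 and 252 RPKM and was 2.27-fold lower. Col20a1 read 14.6, 38.5 and 14.1 RPKM, but its highest exon overlaps an exon of another annotated gene, BX649560.1, and 18 of its 30 exons with enough reads were higher in Dox (+). The remaining FACIT genes, Col9a1, Col9a2, Col9a3, Col19a1 and Col22a1, were at or below 10 RPKM in both knock-in libraries, with highest values over the 3 libraries of 4.12, 1.85, 18.9, 5.82 and 3.70 RPKM.

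None of the basement membrane chains was called lower in Dox (+). Col4a1 had 571 RPKM in MEF, 4974 RPKM in Dox (-) and 3136 RPKM in Dox (+). Col4a2 had 443, 3224 and 1738 RPKM. Both were therefore lowest in MEF and highest in Dox (-), and in Dox (+) they were 1.59-fold [1.52 to 1.65] and 1.86-fold [1.77 to 1.94] below Dox (-). These 2 genes lie head to head on chromosome 8, with RefSeq start sites 21 bp apart in mm10, and encode the 2 chains of the most widespread type IV trimer. Their level ratio was 1.29 in MEF, 1.54 in Dox (-) and 1.80 in Dox (+), from highest exons of 27 and 36 bp. From the median exon it was 1.49, 1.69 and 1.61 in the same order, and from exons of at least 150 bp 1.23, 1.33 and 1.35. The order of the 2 knock-in libraries in this ratio thus depended on the exon used. The X-linked pair Col4a5 and Col4a6 is also arranged head to head. Col4a5 had 314, 560 and 235 RPKM and Col4a6 13.5, 17.9 and 16.2 RPKM. Col4a3 and Col4a4, the chains of the kidney filter, stayed near the floor. A level of 5.05 RPKM for Col4a4 in Dox (+) came from 2 reads on an exon of 9 bp.

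No gene of type VI or of the other networks was called in Dox (+) against Dox (-). The 3 genes of the beaded filament, Col6a1, Col6a2 and Col6a3, had 2086, 2716 and 876 RPKM in Dox (-) and 1080, 1352 and 547 RPKM in Dox (+), so that each was between 1.60-fold and 2.01-fold lower. Col7a1, the anchoring fibril that ties epidermis to dermis, had 307, 314 and 136 RPKM in MEF, Dox (-) and Dox (+). Col8a1 and Col8a2, found in Descemet's membrane and vessel walls, had 548 and 39.3 RPKM in Dox (-) and 186 and 14.3 RPKM in Dox (+). Col10a1, the collagen of hypertrophic cartilage, went the other way with 16.6 RPKM in MEF, 44.8 RPKM in Dox (-) and 58.9 RPKM in Dox (+). It was higher in Dox (+) in 3 of 3 exons, with a ratio of 1.33 on the highest [1.15 to 1.54], and its log2 difference of 0.39 became 0.09 with rescaled libraries. Of the multiplexins, which carry the endostatin domain, Col15a1 had 4.35, 98.2 and 36.6 RPKM and Col18a1 107, 400 and 307 RPKM.

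The transmembrane and unclassed collagens were rare messages. Col25a1 had 0.67 RPKM in MEF, 16.7 RPKM in Dox (-) and 2.84 RPKM in Dox (+), and its call as lower in Dox (+) rested on 18 against 3 reads, a ratio of 5.87 [1.71 to 31.1]. Col28a1, related to type VI, had 2.47, 25.2 and 6.73 RPKM. Col17a1, the hemidesmosome collagen of keratinocytes, and Col23a1 and Col26a1 did not exceed 3.17 RPKM in any of the 3 libraries.

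**Figure D4:**
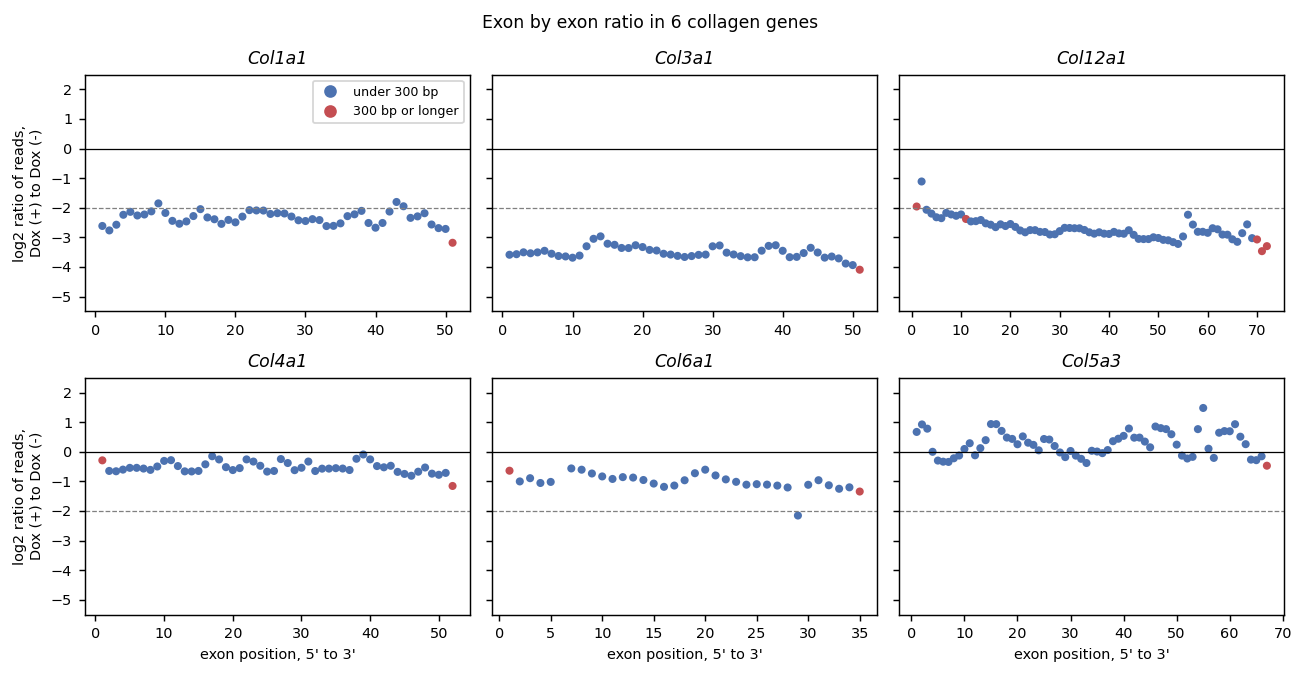
Log2 ratio of reads in Dox (+) to Dox (-), scaled by depth and with 0.5 reads added, on each exon with at least 20 reads in the 2 libraries together, along 6 collagen genes from 5′ to 3′ (horizontal axis: exon position). The exons of Col1a1, Col3a1 and Col12a1 lie well below 0, those of Col4a1 and Col6a1 lie closer to 0, those of Col5a3 lie on both sides of it, and in the first 5 genes the last exon, at least 300 bp long (red), is among the lower points.

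The second comparison set untreated knock-in MEFs against the library labelled MEF. Of 31 collagen genes compared, 10 (32.3%) were called higher in Dox (-) and 1 (3.23%) lower, while over all 13234 genes compared 8.26% were called higher and 1.21% lower. The median log2 difference over the 40 genes was 1.34, with 36 genes above 0, beside 0.056 over all genes. The 10 genes were Col4a1, Col4a2, Col8a1, Col11a2, Col14a1, Col15a1, Col24a1, Col25a1, Col27a1 and Col28a1. From the longest exon 6 genes were called higher, 5 of these and Col10a1, and from the median exon 11, of which 6 were among the 10. Col11a2 had 5 reads in MEF and 28 in Dox (-) on its highest exon, a ratio of 5.60 [2.13 to 18.6]. Col4a1 and Col4a2 were 8.71-fold [8.05 to 9.43] and 7.27-fold [6.73 to 7.87] higher in Dox (-), and Col8a1 4.33-fold higher [3.98 to 4.71]. Col15a1 had 4 reads in MEF and 137 in Dox (-) on its highest exon, a ratio of 34.3 [13.1 to 127]. Col24a1 had 0 reads in MEF and 75 in Dox (-), which is at least 25.0-fold higher against a floor of 3 reads. For Col25a1 the same bound is at least 6.00-fold. The most abundant chains were higher without a call, Col1a1 by 2.53-fold, Col1a2 by 1.97-fold and Col3a1 by 3.16-fold. Col2a1 was the gene called lower, 24.5-fold, in 56 of 56 exons by over 4-fold.

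The third comparison, Dox (+) against MEF, left few calls. Of 26 collagen genes compared, 2 (7.69%) were called higher, Col4a1 and Col15a1, and 4 (15.4%) lower, Col2a1, Col9a3, Col11a1 and Col14a1. Over all 12941 genes the shares were 6.55% and 3.40%. Taken from the longest exon, neither Col4a1 nor Col15a1 was called, and Col10a1 was called higher. That exon gave 6 genes called lower. Of the 4 above, Col2a1 and Col11a1 kept their call, and Col1a1, Col1a2, Col3a1 and Col5a2 were called in addition. The median over the 40 genes was -0.035 on the log2 scale, with 19 genes above 0 and 21 below. Col4a1 was 5.49-fold higher in Dox (+) than in MEF [5.06 to 5.96] and Col4a2 3.92-fold higher [3.61 to 4.26], whereas Col1a1, Col1a2, Col3a1 and Col5a2 were 2.15-fold, 2.22-fold, 3.92-fold and 3.34-fold lower. Col11a1 was 7.92-fold lower. Col9a3, a chain of the cartilage collagen type IX, had 18.9 RPKM in MEF and 4.31 RPKM in Dox (+), with 28 against 2 reads on its highest exon. The 3 comparisons share libraries pairwise, so their differences are not independent of each other.

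The enzymes and partners of collagen were read in the same comparison, Dox (+) against Dox (-), in which 5.41% of all genes were called lower and 1.64% higher. The lists are short, and no test of a difference from the chains or from all genes was run. Of the genes for chain hydroxylation, folding and glycosylation, 0 of 17 compared were called in either direction. Serpinh1, the collagen chaperone HSP47, had 4469 RPKM in MEF, 3255 RPKM in Dox (-) and 2305 RPKM in Dox (+), and P4ha1, a catalytic subunit of prolyl hydroxylase, had 1798, 1005 and 1106 RPKM. P4ha3, at 185, 343 and 101 RPKM, and Plod2, at 234, 584 and 272 RPKM, were lowered most in Dox (+) against Dox (-). The median log2 difference of that list was -0.43. Summed over that list, the level was 1.29-fold lower in Dox (+) than in Dox (-), against 3.67-fold for the chains themselves. Among genes for propeptide removal 0 of 6 were called, and among the lysyl oxidases 0 of 5, although Lox itself had 3439, 6027 and 2276 RPKM. Of the small leucine-rich proteoglycans, which bind fibrils and regulate their growth, 3 of 8 were called lower and 0 higher. Aspn had 371, 875 and 55.4 RPKM, Ogn 524, 617 and 111 RPKM, and Lum 6.07, 226 and 44.8 RPKM. Among 8 collagen receptors compared, Lair1, an inhibitory receptor of immune cells, was called lower at 54.1 RPKM in Dox (-) and 3.79 RPKM in Dox (+). Itga11, at 456 and 130 RPKM in those libraries, and Itga1, at 53.8 and 20.9 RPKM, were lower without a call. Ddr1 had 192 and 194 RPKM, Ddr2 250 and 255 RPKM, and Itgb1 3716 and 3304 RPKM. Mrc2 had 607 and 650 RPKM and Itga2 10.6 and 11.1 RPKM.

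In the comparison of Dox (-) with MEF, in which 8.26% of all genes were called higher and 1.21% lower, the calls in these lists were in the higher direction. They were P3h2 of 17 processing genes, Adamts2 of 6 propeptide genes, 0 of 5 lysyl oxidases, Dcn, Lum and Podn of 9 proteoglycans, and Itga2 and Lair1 of 8 receptors. Dcn, which encodes decorin, had 30.02 RPKM in MEF, 1637 RPKM in Dox (-) and 720 RPKM in Dox (+). In Dox (+) against MEF, 6.55% of all genes were called higher and 3.40% lower. Pcolce2 of 6 propeptide genes, Dcn, Lum and Podn of 9 proteoglycans and Itga2 of 7 receptors were called higher there. Ogn and Aspn of the 9 proteoglycans were called lower. Of 17 processing genes and of 5 lysyl oxidases, 0 were called.

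The promoters of the collagen genes were searched for short motifs, since many of the genes differed together. Windows from 250 bases before to 50 bases after the RefSeq start site matched 32 of the 41 genes by symbol, with 35 windows among 32851 of all genes (GRCm38.p6). The letters CACGTG, a palindrome and the form of the E-box that MITF is known to bind, were in 0 of the 35 windows and in 7.15% of all windows. CATGTG, the other form bound by MITF, was found on either strand in 3 of 35 (8.57%), those of Col3a1, Col11a2 and Col24a1, against 14.2% of all. CCAAT was in 12 of 35 (34.3%) against 37.4%, and GGGCGG, the letters of the GC box, in 20 of 35 (57.1%) against 35.7%. All were searched on both strands, each motif was counted on its own, and no test was run. A match is a description of the letters and not of binding, and binding was not measured here. The 250 bases before the start of Col3a1, the most strongly differing of the abundant genes, are shown with the CATGTG match, on the reverse strand as CACATG, in capitals.
Col3a1, chr1:45311288-45311537, plus strand: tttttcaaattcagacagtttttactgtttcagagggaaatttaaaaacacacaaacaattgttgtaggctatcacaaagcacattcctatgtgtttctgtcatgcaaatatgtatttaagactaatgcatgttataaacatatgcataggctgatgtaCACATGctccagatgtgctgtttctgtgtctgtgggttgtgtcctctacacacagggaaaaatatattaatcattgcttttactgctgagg

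The length of an exon bore on its value. In Dox (-), collagen exons of at most 54 bp lay at a median of 0.41 on the log2 scale above the median exon of their gene, and those of at least 300 bp lay 0.99 below it (median -0.99), with 0.83 and -0.82 for the exons of other genes. Levels taken from the highest exon, at most 54 bp long in 32 genes, cannot by construction lie below the median exon of the same gene. Col3a1, for example, had a median exon value of 1563 RPKM in MEF, 5923 RPKM in Dox (-) and 517 RPKM in Dox (+). Its order of libraries was that of the highest exon. In genes whose longest exon reached 1000 bp, the log2 difference of Dox (+) against Dox (-) was lower on that exon than on the median exon, by a median of -0.28 over 5417 genes and -0.55 over 16 collagen genes, in 15 of the 16.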

How the data were processed

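Poly(A) RNA of wild-type MEFs (MEF), Mitf knock-in MEFs without (Dox (-)) and with Dox (Dox (+)) and melanocytes (PMel) was sequenced by the authors, 1 library per condition. Per the labels and the study's methods, reads were demultiplexed with bcl2fastq 2.17.1.14, aligned to mm10 with TopHat2 2.0.10 and counted per Ensembl exon with bedtools, and the authors deposited RPKM values per exon. Strand-specific counting is not stated, so overlapping genes can share reads. Columns were assigned to libraries by name. 1 column whose name matched no label was not used, so the planned comparisons with PMel were not run, and Dox (+) against MEF was added after the data were seen.

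Exon identifiers were joined to GENCODE release M21 (228132 of 234718 matched, 226463 used). The level of a gene was its highest exon RPKM. Calls required over 10 RPKM in at least 1 library and over 4-fold without a pseudocount, and log2 differences used a pseudocount of 1 RPKM. Reads were recovered with a whole-number divisor on the RPKM scale searched between 20 and 80, which made 97.0%, 96.8% and 96.7% of values up to 200 reads whole within 0.01 in MEF, Dox (-) and Dox (+). Intervals are exact conditional binomial intervals at 95% and the floor was 3 reads, both for counting error only. No p-values were computed. The text names every collagen chain gene with exons, members of the pathway lists by their calls, and the 2 highest markers of lists that moved. The result of 1 further marker list is not reported here. Of the pathway genes, Serpinh1, P4ha1, P4ha3, Plod2, Lox and the receptors without a call were named after their values were seen. The same holds for the markers Laptm5, Tcf21, Dpt, Fap, Pdgfrb, Twist1, Pmel, Tyrp1, Sox10, Dct, Slc45a2, Oca2 and those of cartilage. The members and lists were chosen with earlier results of these data known. Alternatives changed the minimum level, the fold threshold, the pseudocount, the exon that stands for a gene and the scaling. The steps were tested on simulated data. Python 3.11.15, pandas 2.3.3, NumPy 2.4.6, SciPy 1.17.1 and matplotlib 3.10.9 were used.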

Additional observations from a re-analysis of the deposited data

How the results depend on the processing

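Of 84 values recomputed under alternatives, 61 stayed within 1.5 times the reported count or value (for medians on the log2 scale, within the log2 of 1.5), 21 moved further and 2 reversed. In Dox (+) against Dox (-), the collagen genes called lower numbered 8 to 13 under every alternative except a fold threshold of 2, which gave 21, and the count called higher was 1 (Col4a4) with a minimum level of 1 RPKM. Their median log2 difference stayed between -1.49 and -0.77. In Dox (-) against MEF, the 10 genes called higher became 6 with a minimum of 30 RPKM and 21 with a fold threshold of 2. The longest exon gave 6, of which 5 were among the 10. The median exon gave 11, a similar count, of which only 6 were among the 10. With a fold threshold of 2, 2 genes were called lower. In Dox (+) against MEF, the 2 genes called higher became 6 with a minimum of 1 RPKM and 6 with a fold threshold of 2. They became 4 with exons of at least 150 bp, 5 with the median exon and 1 with the longest exon. That 1 gene was Col10a1, so 0 genes were shared with the reported calls. The 4 called lower became 2 with a minimum of 30 RPKM, 9 with a fold threshold of 2 and 2 with the median exon. Exons of at least 150 bp gave 6 called lower, of which 3 were among the 4. The longest exon also gave 6, of which 2 were. The median log2 difference of this comparison, -0.035, reversed to 0.082 with exons of at least 150 bp and to 0.16 with the median exon. Summed levels were lower by construction with other exons. They were 11189 RPKM in MEF, 26494 RPKM in Dox (-) and 7017 in Dox (+) with the median exon. With exons of at least 150 bp they were 22087 RPKM in MEF, 37274 RPKM in Dox (-) and 7608 in Dox (+). The order of the libraries was kept, and the size of their differences depended on the exon used. The ratio of Col5a1 to Col5a2 became 0.575 in Dox (-) and 0.956 in Dox (+) with exons of at least 150 bp. The cause of the other shifts was not tested.

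No paired analysis was possible because there was 1 library per condition and no test, and for the same reason leaving out a replicate was not run. The alternatives planned for PMel were not run. Depth limits the genes of low level, where single reads on short exons set the highest value.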
